A study of Mus musculus with 6 samples.

Results

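The anoctamins (TMEM16 proteins) are a family of membrane proteins with 10 members in the mouse, and the signal of every array probe for them was read in cultured osteoclasts, the multinucleated cells that resorb bone. The members are the genes named Ano1 to Ano10 on the array. They account for 10 of the 37074 gene names carried by transcript probes and for 20 probes, each printed as 1 spot. Ano1, Ano8 and Ano9 have 1 probe each, Ano2, Ano5, Ano6 and Ano7 have 2 each, and Ano3, Ano4 and Ano10 have 3 each.

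Total RNA from 6 osteoclast cultures was labelled with Cy3 and hybridised to 6 Agilent mouse arrays of 1 colour, which shared 1 slide and 1 scan. The 3 Ano1fl/fl mice carry an Ano1 gene flanked by loxP sites and no Cre, and the 3 Ctsk-Cre;Ano1fl/fl mice, their littermates, carry the same floxed gene and a Cre recombinase transgene under the control of cathepsin K, which is made by osteoclasts. Marrow of mice 6 to 8 weeks old was first kept with M-CSF for 1 day, and the cells that had not attached were then grown with 30 ng/ml of the macrophage growth factor M-CSF and 50 ng/ml of the osteoclast-inducing cytokine RANKL for 5 days, in both groups. Cre is made only in cells that use the cathepsin K promoter, so Ano1 is left in place in any other cells of a culture.

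ANO1 and ANO2 are calcium-activated chloride channels. ANO6 is a phospholipid scramblase: when calcium rises it moves phosphatidylserine to the outer face of the plasma membrane, and it also passes ions. Scrambling has been described for several other members, among them ANO3, ANO4, ANO5, ANO7 and ANO9. ANO8 joins the endoplasmic reticulum to the plasma membrane, and ANO10 is known from an inherited cerebellar ataxia. In bone, mutations of human ANO5 cause gnathodiaphyseal dysplasia, a disease of fragile long bones and jaw lesions.

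The probes are 60 bases long, and the readings below depend on where each one lies. The first 30 bases of the probes for Ano1, the gene targeted in the mice, and for Ano6 and Ano10, the members that differed between the groups, are shown 5′ to 3′ as the scanner files give them, with positions on mm9. The probes of Ano6 lie within 1.73 kb of each other on the plus strand, whereas those of Ano10 are spread over 96.6 kb on the minus strand.
Ano1 A_55_P2038747 (chr7:151774604-151774663): cttgtgcagtgatgtggtttccaatgatgt
Ano6 A_55_P2327027 (chr15:95803331-95803390): acctacctggaggtcctgaacatgctccct
Ano6 A_52_P660158 (chr15:95805004-95805063): ttcctaaggacaggaaagtactcccactcc
Ano10 A_55_P2934399 (chr9:122181577-122181636): aaccctagaaaaccagaatttataccttgt
Ano10 A_55_P2040455 (chr9:122160266-122160325): agtgaatgcagtctttccagaatccaaaac
Ano10 A_55_P2912540 (chr9:122085012-122085071): ttctgtatggtgttatgttgacactttgca
The Ano6 probes start at bases 3138 and 4748 of the transcripts they were designed on, and the Ano10 probes at bases 319, 1870 and 2573 of theirs. The Ano1 probe starts at base 4391. The scanner files give these positions and no exon or UTR, and which part of Ano1 the recombination removes is not given in the sources used here. No probe of another gene shared a run of 25 bases with any of the 20 anoctamin probes.

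Ano6, Ano7, Ano8 and Ano10 each had at least 1 probe well above background on all 6 arrays, 7 probes in all. A further 12 probes, of Ano1, Ano2, Ano3, Ano4, Ano5, Ano7 and Ano9, were not well above background on any array, and 1 probe of Ano5 passed on 1 array. The mark "well above background" is the scanner software's own test of a spot against the area around it. The lowest processed signal that passed it lay between 15.0 and 18.4 on an array, and the 12 probes lay between 3.00 and 9.14. Of their 72 values, 65 were surrogate values, which the software writes in place of a signal too weak to measure, so their order within or between groups carries no information.

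**Figure D1:**
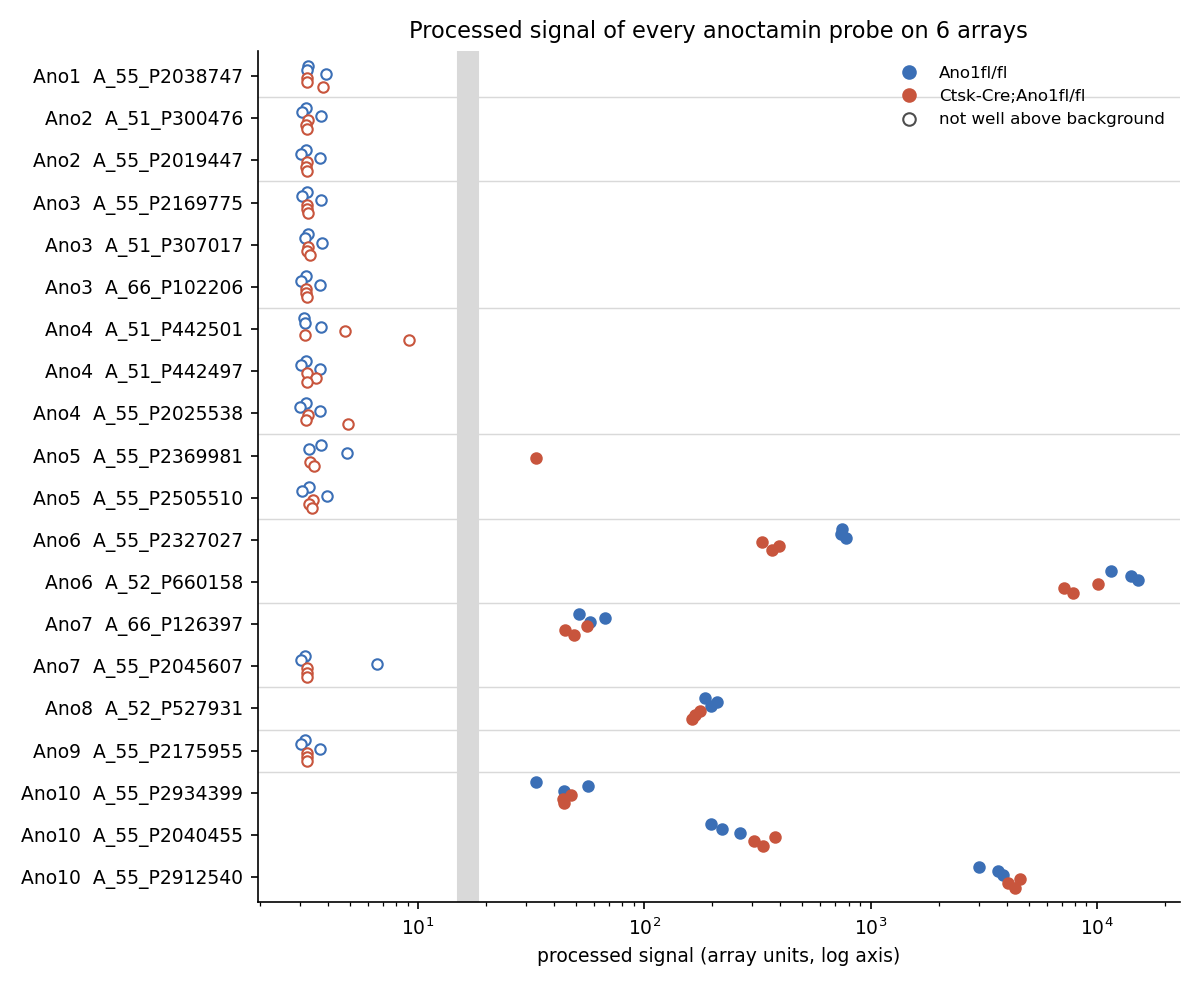
Processed signal (array units, log axis) of the 20 anoctamin probes, with 1 point for each of the 3 Ano1fl/fl and 3 Ctsk-Cre;Ano1fl/fl arrays. Filled points are well above background, open points are not, and the grey band spans the lowest signals that passed on the 6 arrays, 15.0 to 18.4. The 7 probes of Ano6, Ano7, Ano8 and Ano10 to its right are filled on every array, and 1 probe of Ano5 is filled on 1 array.

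The chloride channel members gave no level. The Ano1 probe read 3.22 to 3.91 over both groups and was not well above background on any of the 6 arrays, so it checks neither the deletion nor the labels, and every direction below is that of the arrays as labelled. For the osteoclast markers Ctsk, Mmp9 and Acp5 that direction, given further on, is opposite to the study's other assays of osteoclasts of these mice. Nfatc1, also measured there, had 1 tested probe called higher and 1 lower on the arrays. The sign of every difference therefore rests on the labels alone. Both Ano2 probes lay between 3.03 and 3.73 and were below background throughout. The 3 probes of Ano3 and the single probe of Ano9, which encode scramblases, lay between 3.04 and 3.76 and were likewise below background on all 6 arrays. A probe below background does not show that a transcript was absent from the cells.

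Ano4, another scramblase gene, had 3 probes and none passed on any array. Its probe A_51_P442501 read 3.14, 3.16 and 3.75 on the Ano1fl/fl arrays, against 4.77, 3.17 and 9.14 for the Ctsk-Cre;Ano1fl/fl arrays 1 to 3. The value of 9.14 was the highest of any anoctamin probe that did not pass, and it too was below the lowest signal that passed on that array, 16.2. The probe crosses a splice junction: its ends lie 24557 bases apart, at chr10:88551008-88575564 on the minus strand. The other Ano4 probes, A_51_P442497 and A_55_P2025538, had highest values of 3.69 and 3.68 among the Ano1fl/fl arrays and of 3.53 and 4.90 among the Ctsk-Cre;Ano1fl/fl arrays.

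Ano5 was read above background on a single array. Its probe A_55_P2369981 (chr7:58849666-58849725, plus strand) read 3.74, 3.30 and 4.84 on the Ano1fl/fl arrays, against 33.2, 3.32 and 3.47 for the Ctsk-Cre;Ano1fl/fl arrays, and only the 33.2 on replicate 1 was well above background. The other 2 Ctsk-Cre;Ano1fl/fl arrays lay within the range of the Ano1fl/fl arrays. The probe passed on all 3 arrays of neither group and was not tested. The second Ano5 probe, A_55_P2505510, which lies further along the same transcript, was not above background on that array, at 3.43, nor on any other (3.09 to 3.97). ANO5 is best known from skeletal muscle, and of the 9 muscle markers measured, 4 were well above background on that array, against 5 and 4 on the other Ctsk-Cre;Ano1fl/fl arrays and 2 on each Ano1fl/fl array. Of the markers of skeletal muscle, Acta1 was well above background on all 3 Ctsk-Cre;Ano1fl/fl arrays and on no Ano1fl/fl array, Myod1 only on Ctsk-Cre;Ano1fl/fl replicate 2, and Ckm, Myog and Pax7 on none of the 6 arrays. Their part in the Ano5 signal was not tested.

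The main comparison asked which anoctamins differ between osteoclast cultures of the Ctsk-Cre;Ano1fl/fl and Ano1fl/fl mice. Ano6 was lower and Ano10 higher in the Ctsk-Cre;Ano1fl/fl cultures, while the probes of Ano7 and Ano8 did not pass the test. Of the 7 probes tested, 2 were called higher (28.6%), against 21.8% of all 31848 probes tested, and 2 were called lower (28.6%), against 30.6%. A probe was called at a Benjamini-Hochberg adjusted p under 0.05 from limma, over all probes tested. The groups did not overlap for 4 of the 7 (57.1%), against 64% of all probes. These shares are near the background, so the family as a whole did not stand out from other probes. The values below are normalized log2 signals, in which the arrays have been brought to the same distribution.

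Ano6, the scramblase gene, was lower on the Ctsk-Cre;Ano1fl/fl arrays with both of its probes. Probe A_55_P2327027 read 9.64, 9.39 and 9.38 on the Ano1fl/fl arrays, against 8.31, 8.92 and 8.60 for the Ctsk-Cre;Ano1fl/fl arrays, so the groups did not overlap. Its log2 signal fell by 0.86 (standard error 0.17, limma adjusted p = 0.00641), which is 1.81-fold lower with a 95% interval of 1.37 to 2.40. Before normalization the same probe read 746, 740 and 777 processed units on the Ano1fl/fl arrays, against 331, 394 and 366 for the others, a separation of the same direction in every array. Probe A_52_P660158 read 13.55, 13.59 and 13.64 on the Ano1fl/fl arrays, against 13.32, 13.10 and 13.07 for the Ctsk-Cre;Ano1fl/fl arrays. The groups again lay apart, with a fall by 0.43 (standard error 0.09, limma adjusted p = 0.00953), or 1.35-fold lower with a 95% interval of 1.15 to 1.57. No other member was called lower.

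The fitted fall of Ano6 was larger with A_55_P2327027, but the ranges of the gap between the probes overlapped. Within an array, the log2 signal of A_55_P2327027 minus that of A_52_P660158 lay between -4.26 and -3.91 on the Ano1fl/fl arrays and between -5.01 and -4.17 on the Ctsk-Cre;Ano1fl/fl arrays. The change of -0.43 between the groups had p = 0.3 in an exact two-sided permutation test. The probes were designed on different Ano6 transcripts, NM_001253813 for A_55_P2327027 and NM_175344 for A_52_P660158. Of all tested probes, 21.4% had a larger absolute difference than the former and 44.4% a larger one than the latter.

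Ano10 was higher on the Ctsk-Cre;Ano1fl/fl arrays with 2 of its 3 probes. Probe A_55_P2912540, which lies nearest the 3′ end of the 3, read 11.61, 11.65 and 11.65 on the Ano1fl/fl arrays, against 12.15, 12.29 and 12.18 for the Ctsk-Cre;Ano1fl/fl arrays. It rose by 0.57 (standard error 0.07, limma adjusted p = 0.00125), which is 1.49-fold with a 95% interval of 1.31 to 1.68. Probe A_55_P2040455, in the middle, read 7.70, 7.65 and 7.79 on the Ano1fl/fl arrays, against 8.52, 8.56 and 8.47 for the others. It rose by 0.80 (standard error 0.08, limma adjusted p = 0.000353), or 1.74-fold with a 95% interval of 1.54 to 1.98, the smallest adjusted p of the 7 probes. In both probes all 3 Ctsk-Cre;Ano1fl/fl arrays lay above all 3 Ano1fl/fl arrays.

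The third Ano10 probe did not follow them past the threshold. Probe A_55_P2934399, at the 5′ end and designed on another transcript, NM_001271873, read 5.13, 5.68 and 5.23 on the Ano1fl/fl arrays, against 5.54, 5.71 and 5.58 for the Ctsk-Cre;Ano1fl/fl arrays. The groups overlapped through replicate 2 of Ano1fl/fl, and a difference of 0.26 was fitted (standard error 0.16, limma adjusted p = 0.200), with a 95% interval from -0.11 to 0.64. Without that array the difference was 0.43 and passed the threshold (limma adjusted p = 0.0223). Its processed signals, 33.1 to 56.5, lay nearer to the lowest signals that passed than those of the other Ano10 probes, and its standard error was the largest of the 3.

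The Ano10 probes were also compared with each other within an array. The log2 signal of A_55_P2040455 minus that of A_55_P2912540 lay between -4.00 and -3.86 on the Ano1fl/fl arrays and between -3.73 and -3.63 on the Ctsk-Cre;Ano1fl/fl arrays, 0.23 higher. The 5′ probe minus A_55_P2040455 was 0.54 lower on the Ctsk-Cre;Ano1fl/fl arrays, and the 5′ probe minus A_55_P2912540 was 0.31 lower. In all 3 pairs the groups did not overlap, and each reached p = 0.1 in an exact two-sided permutation test, the smallest that 3 arrays against 3 can give (adjusted p = 0.133 over the 4 probe pairs compared, Ano6 included).

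**Figure D2:**
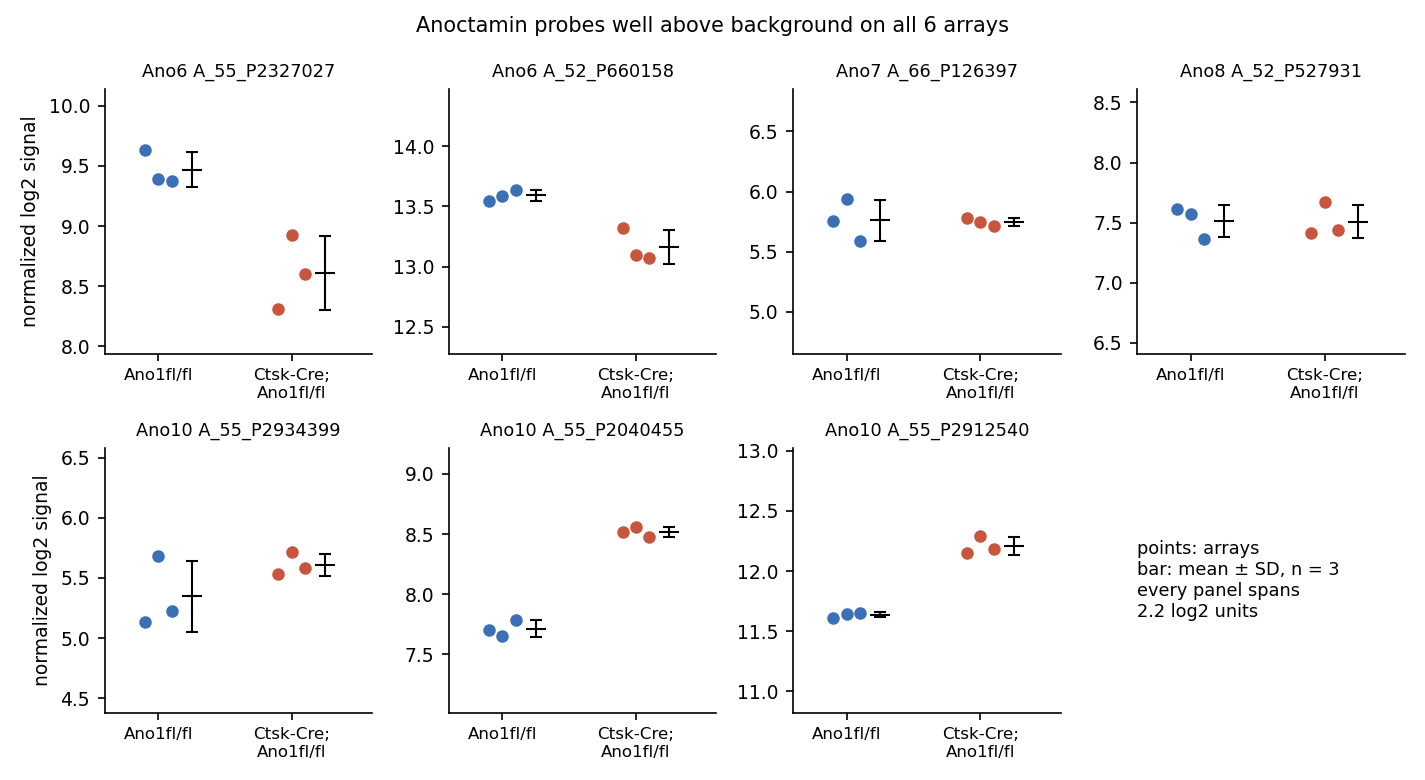
Normalized log2 signal of the 7 anoctamin probes well above background on all 6 arrays, with 1 point per array (blue Ano1fl/fl, red Ctsk-Cre;Ano1fl/fl) and bars for the mean ± SD of 3 arrays. The groups lie apart for both Ano6 probes and for 2 Ano10 probes, and overlap for Ano7, Ano8 and the Ano10 probe A_55_P2934399.

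Ano7, known for its expression in prostate, was read by 1 of its 2 probes. Probe A_66_P126397 (chr1:95298731-95298790, plus strand) had log2 signals of 5.76, 5.93 and 5.59 on the Ano1fl/fl arrays, against 5.78, 5.75 and 5.71 for the Ctsk-Cre;Ano1fl/fl arrays, which lay inside the range of the former. The means were 5.76 ± 0.17 (SD, n = 3) and 5.75 ± 0.03 (SD, n = 3). The difference of -0.01 (limma adjusted p = 0.919) had a 95% interval from -0.27 to 0.24. The other probe, A_55_P2045607, was below background on all arrays, with a highest value of 6.59 on replicate 3 of Ano1fl/fl.

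Ano8, the tether between the endoplasmic reticulum and the plasma membrane, had 1 probe, A_52_P527931 (chr8:73999938-73999997, minus strand), and only 25% of its bases are G or C. Its log2 signals were 7.61, 7.57 and 7.36 on the Ano1fl/fl arrays, against 7.42, 7.67 and 7.44 for the Ctsk-Cre;Ano1fl/fl arrays. The groups overlapped, and the difference of -0.01 (limma adjusted p = 0.965) had a 95% interval from -0.27 to 0.26. Before normalization the picture was another: 186, 210 and 198 processed units against 177, 167 and 162, with the groups apart. The arrays themselves differed in brightness, with median processed signals of 35.7 to 44.2 on the Ano1fl/fl arrays and 32.1 to 39.2 on the Ctsk-Cre;Ano1fl/fl arrays. With 75th percentile scaling in place of quantile normalization the Ano8 difference was -0.05 (limma adjusted p = 0.745). For both Ano7 and Ano8 the intervals leave room for changes of up to about 1.2-fold in either direction, and the direction of the small difference turned under some settings.

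**Figure D3:**
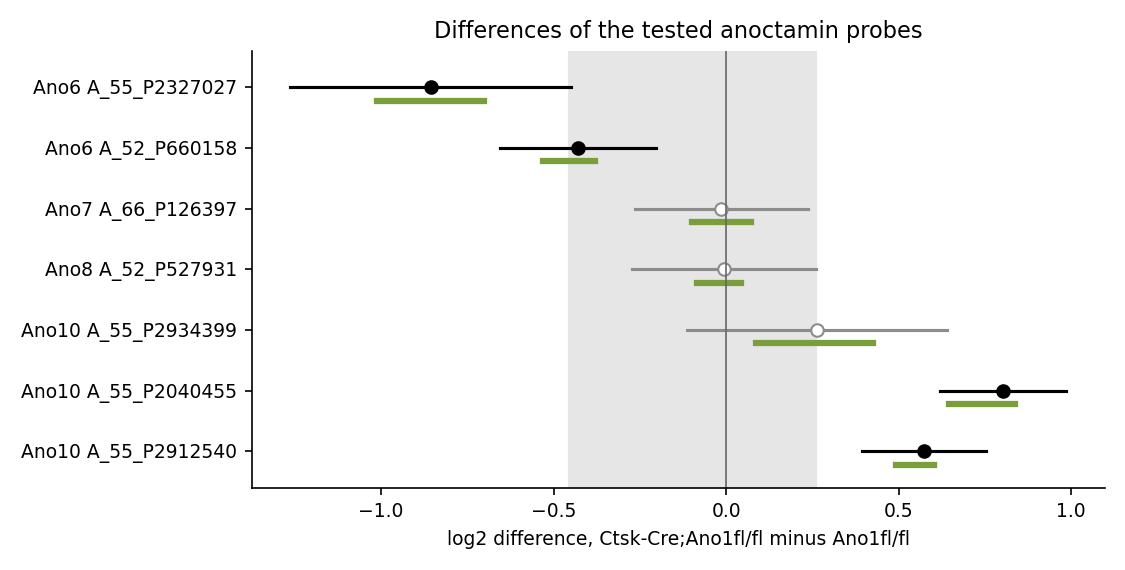
Log2 difference (Ctsk-Cre;Ano1fl/fl minus Ano1fl/fl) of the 7 tested anoctamin probes, with the 95% interval from limma as a line, filled black where the probe was called and open grey where it was not. Green bars span the values under the alternative settings, and the grey band is the middle part of all tested probes, from the lower quartile of -0.45 to the upper quartile of 0.26. Both Ano6 probes lie left of 0 and both called Ano10 probes right of it with their whole intervals.

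The groups also differed widely outside the family. Pairs of arrays correlated at 0.994 to 0.997 within a group and at 0.944 to 0.950 between the groups, across the tested probes. The markers below are counted by the brightest probe of each gene. By that probe 23% of all 20645 genes tested were called higher and 28.5% lower. Of the 11 osteoclast markers 10 were higher on the Ctsk-Cre;Ano1fl/fl arrays and 1 lower, and the sum of their normalized signals was 156874 to 169480 on the Ano1fl/fl arrays and 506512 to 571627 on the others. Ctsk and Mmp9, which encode cathepsin K and a matrix protease, were higher by 3.17 and 4.36 on the log2 scale, and Acp5, the tartrate-resistant acid phosphatase gene, by 0.84. Calcr, the calcitonin receptor gene, is counted among the 10 but was well above background on 2 of the 3 Ano1fl/fl arrays, so it was tested only through its brighter group, while the other 10 markers were above background on all arrays. Nfatc1, also counted among the 10 by its brightest probe, had 1 of its 2 tested probes called higher and 1 lower, so its direction is not settled, and the marker called lower, Tnfrsf11a, was so with 2 of 3 probes. Of the 15 stromal and osteoblast markers tested 11 were higher, Sparc and Col1a2 among them, and 2 lower, Lepr by -0.69 and Runx2 by -0.46. Sp7 and Thy1 were not called. The summed signal of all 16 was 3392 to 4403 against 58178 to 96409. Of the 11 called higher, Lum, Pdgfra and Postn were tested only through the Ctsk-Cre;Ano1fl/fl arrays, and their calls are no independent support. All 4 B cell markers, Cd79b and Ms4a1 among them, were higher, with sums of 7397 to 8908 against 28322 to 55455. Of the 9 neutrophil markers 6 were lower, S100a8 among them, and 1 higher, while S100a9 was not called, with sums of 307868 to 323817 against 202814 to 254914. Macrophage markers had 1 of 7 higher, Adgre1, by 0.80 with both of its probes, and 2 lower, Cx3cr1, by -4.62, and Mrc1, by -1.36. Lyz2, Csf1r, Cd14 and Cd68 were not called by their brightest probes, though Cd68 had 2 of its 3 tested probes called higher. The macrophage marker sums were 495308 to 521054 against 528359 to 586074. Of the muscle markers, Actg2 and Myh11 were above background in both groups, and Actg2 was higher by 0.50 while Myh11 was not called. Cnn1 and Acta1 were also called higher but were tested only through the Ctsk-Cre;Ano1fl/fl arrays. The muscle marker sums were 1956 to 2122 against 2827 to 3386, and 4 of the 9 markers were below background on every array. Endothelial markers had 1 of 3 higher, Pecam1, and 1 lower, Kdr, with sums of 3647 to 4770 against 1709 to 1991. In these mixed cultures fewer cells of a type and less RNA per cell cannot be told apart, and the part of these shifts in the Ano6 and Ano10 differences was not tested.

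Genes with related functions give the setting of the family, each represented by its brightest probe. Over 5 lists, 84 of 90 gene symbols were named on the array, where the genes listed also as Clcn4 and Pacc1 appear as Clcn4-2 and Tmem206, and 63 were tested, of which 21 were higher and 21 lower, with a median log2 difference of 0.01. Over all 20645 genes so represented 23% were called higher and 28.5% lower, and the median was -0.06. In the lists below, a gene that was below background on all arrays of one group is given as a lower bound, the brighter group against the lowest signal that passed on each dim array. Such a gene (Tmc3, Plscr2 and Cftr) entered the test only through its brighter group, as did Xk and Xkr5, which fell short on 1 array of the other. The calls of these genes are no independent support for a difference, and no p is given for them. No median of the 5 lists changed with Tmc3, Plscr2 and Cftr at their bound.

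The nearest relatives of the anoctamins by structure are the TMEM63 and TMC proteins, which include mechanically gated cation channels. Of the 7 tested, 4 were higher, Tmc3 among them, and 1 lower, with a median of 0.28. Tmem63b and Tmc8 were higher by 0.64 and 0.65, and Tmc4 was lower, at -0.89. Tmc8 was called with 1 of its 2 tested probes, and Tmc6, counted as higher by its brightest probe, had 3 of 4 tested probes called higher and 1 lower. Tmc3 was at least 1.93-fold higher, given as a bound because none of the Ano1fl/fl arrays passed. Tmem63a did not pass the threshold, with a difference of 0.08.

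The list of scramblases of other families had 11 genes tested, with 6 called higher, Plscr2 among them, and 5 called lower, Xk and Xkr5 among them, and a median of 0.37. Xkr8, the scramblase that caspases activate in dying cells, was 1.12 higher, with means of 8.99 ± 0.08 and 10.11 ± 0.13 (SD, n = 3 each). Plscr1 was 1.43 higher, and Plscr2 at least 4.54-fold higher, with no Ano1fl/fl array above background. Xkr5, Atg9a, a scramblase of the autophagy membrane, and Xk were lower, with differences of -1.53, -0.90 and -0.71. For Xk and Xkr5, 1 of the 3 Ctsk-Cre;Ano1fl/fl arrays was not well above background.

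Flippases, which carry lipids to the cytosolic face of a membrane, phosphatidylserine among them for some members, and their subunits had no member called higher among the 13 tested, and 6 were lower, with a median of -0.24. Atp8b4, Atp10d and Atp10a had the largest falls, with differences of -1.28, -0.88 and -0.84, and every tested probe of these 3 genes was called lower. Tmem30a, the subunit most flippases need, did not pass the threshold, with a difference of -0.13.

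Chloride channels of other families had 14 genes tested, of which 6 were higher and 3 lower, Cftr among the latter, with a median of 0.17. Ttyh2 was 1.36 higher, and Clcn7, which with Ostm1 forms the chloride transporter of the osteoclast's resorbing membrane, was 1.17 higher. Ttyh3 and Best2 were lower, at -0.49 and -0.46, and Cftr was at least 1.37-fold lower, with no Ctsk-Cre;Ano1fl/fl array above background. Clcn6 was 0.84 higher with all 3 of its tested probes called. Clcn2, Clcn3, Clcn4-2 and Clcn5 had differences of 0.20, 0.15, 0.09 and 0.14 and were not called, and Clcn1 was below background on all arrays.

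Genes of calcium supply and binding partners of ANO1, all 18 of them tested, had 5 called higher and 6 lower, with a median of -0.05. Itpr2, a calcium release channel of the endoplasmic reticulum, was 1.12 higher, and Ezr and Msn, which link membrane proteins to actin, were 0.48 and 0.45 higher. Msn was called with 1 of its 3 tested probes and Itpr2 with 3 of 4. Trpc6 and Trpv4, calcium-permeable channels of the plasma membrane, were lower at -0.95 and -0.49, and Rdx, another actin linker, at -0.67. Trpc6 was called with 2 of its 3 tested probes and Rdx with 1 of 2.

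**Figure D4:**
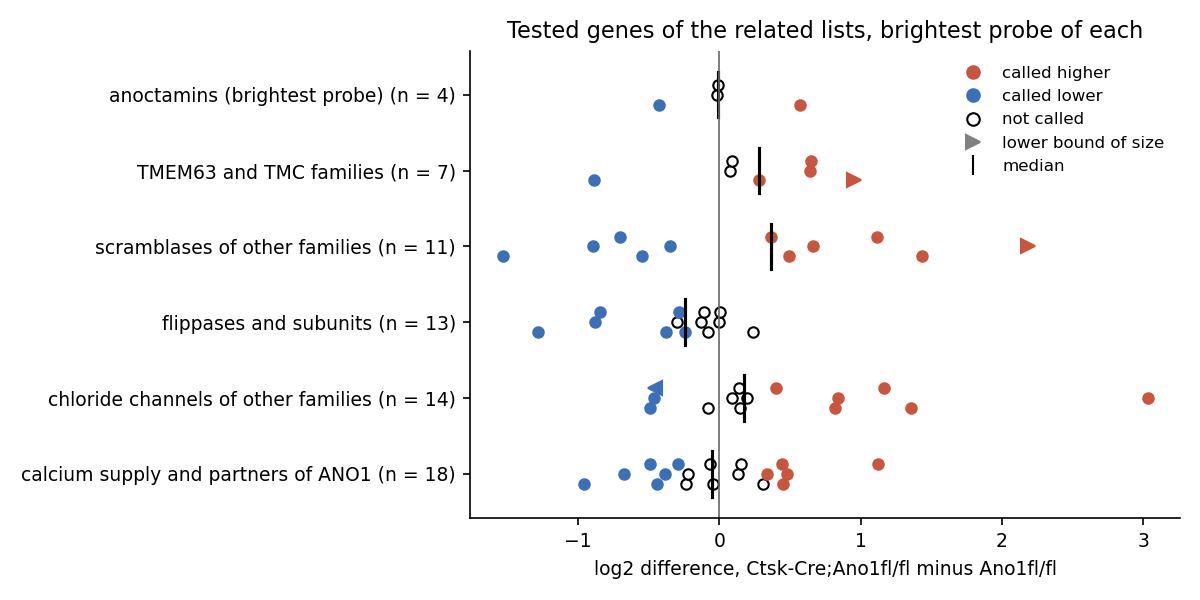
Log2 difference (Ctsk-Cre;Ano1fl/fl minus Ano1fl/fl) of each tested gene, by its brightest probe, for the anoctamins and the 5 related lists, with the median of each as a vertical line. The 4 anoctamins lie between -0.43 (Ano6) and 0.57 (Ano10). The scramblases of other families that were well above background on every array, which are more genes, range from -0.90 (Atg9a) to 1.43 (Plscr1). Triangles (Tmc3, Plscr2 and Cftr) stand at the lower bound of genes below background in one group.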

How the data were processed

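RNA of 3 Ano1fl/fl and 3 Ctsk-Cre;Ano1fl/fl osteoclast cultures was read on Agilent SurePrint G3 Mouse v2 8x60K arrays. Per the file headers, the authors deposited Agilent Feature Extraction 10.7.1.1 output, linear intensity with the local background subtracted, not normalized between arrays and placed on mm9. The deposited series table held the same arrays' spot medians, equal to the scanner values (62973 spots matched). The study's methods name quantile standardization and, for comparisons between groups, a t-test, which was run as an alternative. Each array held 59305 transcript spots, of which 33480 to 34951 were well above background and 0 saturated. The number of arrays limits the precision.

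Outlier spots were set missing, control spots left out, log2 signals quantile normalized, and spots of a probe averaged. Probes that passed the background mark on every array of either group (31848 of 56605) were tested with limma 3.58.1 in R 4.3.3, called at an adjusted p under 0.05, after the code was tested on simulated data. Each sample came from 1 mouse. Anoctamin probes were matched by gene name, and the RefSeq symbol (GRCm38.p6) was the same for all 17 probes with a RefSeq transcript. All anoctamin probes are described; of each related list the text names up to 3 of the largest called rises and falls, the genes Clcn1 to Clcn7 and Cftr, and 1 result that the rule would name is not reported here. A few genes not called (Tmem63a, Tmem30a) were added after their values were seen. The members and lists were chosen with earlier results of these data known.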

Additional observations from a re-analysis of the deposited data

How the results depend on the processing

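The calls of both Ano6 probes and of the Ano10 probes A_55_P2912540 and A_55_P2040455 held under every alternative that gave them a value: 75th percentile scaling, normexp with an offset of 50, spot medians, no filter on dim probes or a stricter one, another variance model, the methods' t-test after Benjamini-Hochberg, the replicate number as a block, and leaving out each array. The log2 differences ranged from -1.01 to -0.70 and from -0.53 to -0.38 for Ano6 (A_55_P2327027 and A_52_P660158), and from 0.49 to 0.60 and from 0.65 to 0.84 for Ano10. The Ano10 probe A_55_P2934399 was called without replicate 2 of Ano1fl/fl, 1 of its 14 alternatives, and ranged from 0.09 to 0.43. With 1 probe per gene or the mean of its probes, 1 anoctamin was called higher, 1 lower and 2 genes in all, against 1 gene (Ano6) where every probe must be called, and 10826 and 10875 genes in all against 16690 probes. Asking for more than 2-fold as well left 0 anoctamin probes higher, 0 lower and 0 genes, 11 of the related genes against 42, and 5422 probes. Leaving out each array gave 1 to 2 anoctamin genes called. The Ano7 difference turned to 0.0046 with normexp, and leaving out each array gave -0.0997 to 0.0725, above 0 without Ano1fl/fl replicate 2 or Ctsk-Cre;Ano1fl/fl replicate 3. For Ano8 leaving out each array gave -0.086 to 0.043, above 0 without Ano1fl/fl replicate 1 or 2 or Ctsk-Cre;Ano1fl/fl replicate 1 or 3. The cause was not tested, and neither gene was called under any alternative. No pairing of the samples was seen under the replicate numbers (same-numbered arrays' deviations correlated at -0.02, -0.08 and -0.09), though so few arrays cannot exclude one. With the number as a block 2 anoctamin probes were called higher and 2 lower. Signal over background sets the limit for Ano1, Ano2, Ano3, Ano4, Ano5 and Ano9, for which no level can be given.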
